A study of Drosophila melanogaster with 34 samples.

Results

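Small RNAs from the Stellate genes and from their repressor locus, Suppressor of Stellate, were followed through the testis, sperm and seminal vesicle of Drosophila melanogaster. Members were every row of the sense and antisense small RNA tables, of any feature class, named for a Ste: copy, SteXh:, Ste12DOR or a Su(Ste) copy. This gave 116 rows of 84383, of which 64 were on the sense strand and 52 on the antisense strand. The rows belong to 40 genes, 27 Su(Ste) copies annotated as non-coding RNA and 13 protein-coding Ste genes, and no SteXh small RNA row was among them. For the Ste genes the rows are coding exons (13 on each strand), 5' UTRs (11 on each strand) and 3' UTRs (13 sense and 1 antisense). Of the 116 rows, 9 held 0 counts in every library, and the exon and Su(Ste) rows carried nearly all member counts.

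Stellate is an X-linked tandem gene family whose protein resembles the regulatory beta subunit of casein kinase 2. When it is not silenced in the male germ line, the protein forms crystals in spermatocytes and fertility falls. The Y-linked Su(Ste) repeats, which are related to Stellate in sequence, give rise to piRNAs, small RNAs loaded by PIWI-clade Argonaute proteins, that are antisense to Stellate transcripts and guide their destruction. Aubergine (aub) is the Argonaute that carries most of these piRNAs in the testis, while Piwi acts in the nucleus, mainly on transposable elements.

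The small RNA libraries analysed here were 3 of wild-type (WT) sperm, 3 of piwi mutant sperm, 3 of aub mutant sperm, 4 of a PIWI immunoprecipitation (IP) from WT seminal vesicle, 2 of total RNA from WT seminal vesicle, and 1 each of WT testis T1, T2 and T3. The labels give the mutations only as piwi and aub, with no allele, zygosity, strain or age, and do not say what T1, T2 and T3 stand for. They also do not say whether libraries of a group came from separate pools of males, so the p-values below measure the spread between these libraries, which may be technical. Each library held 2363275 to 18728872 assigned counts, of which 22842 to 330029 were antisense. Ribosomal RNA took 62.6% to 87.3% of counts, and the seminal vesicle columns were counted on another feature list than the sperm and testis columns. The libraries labelled sperm held little of the 22 male germline marker genes with rows, 30.6 to 71.7 counts per 1000000 total counts (CPM) in WT sperm against 1882 to 3225 in testis, beside 150 to 426 CPM of accessory gland markers (2.58 to 5.21 in testis) and 1954 to 2771 CPM of muscle markers (1020 to 2988 in testis). The muscle sum was mostly mir-1 in testis (841 to 2711 CPM) but not in WT sperm (311 to 915 CPM). In the sperm libraries the small RNA rows of the mutated genes themselves held 0 to 2 counts, too few to check the genotypes.

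The copies lie in 4 places of the RefSeq Release 6 assembly. On the Y chromosome, 24 Su(Ste) copies fall between positions 869892 and 1040412, and 3 more, CR42429, CR42431 and CR42424, between 2559809 and 2595311. On the X chromosome, 12 Ste copies stand in a tandem array from 14046772 to 14061817, and Ste12DOR, a Stellate relative, stands outside the array at 14000210 to 14000889. Copies share reads, and how reads matching several copies were counted is not given in the sources used here. Values of single copies are therefore uncertain. The family sums are more readable, since they do not depend on the copy at which a read was placed. A read counted at several copies would, however, enter a sum or a share more than once. The intervals on sums and shares take each count as a separate read.

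Testis held by far the most small RNA from both families, nearly all of it antisense at Su(Ste) and mostly sense at Stellate. The 27 Su(Ste) antisense rows summed to 8979 CPM in T1 (95% Poisson interval 8884 to 9074), to 6580 CPM in T2 (6497 to 6664) and to 1983 CPM in T3 (1948 to 2018). The 37 Ste sense rows summed to 421 CPM in T1 (400 to 442), 320 in T2 (302 to 339) and 86.1 in T3 (78.9 to 93.7). T1 was thus the highest and T3 the lowest library for both, with no overlap between intervals. These intervals cover at most counting error, and with 1 library for each of T1, T2 and T3 there is no replicate check.

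Repeat small RNA followed the same order of libraries, and the share of Su(Ste) in the antisense pool was nearly flat. Su(Ste) antisense counts made up 10.3% of all antisense counts in T1, 11.6% in T2 and 10.3% in T3. Antisense counts of repeats without ribosomal RNA went from 62476 to 38337 to 11049 CPM over the same libraries. Of the 50 antisense rows with the most counts, 10 were Su(Ste) copies in T1, 13 in T2 and 11 in T3. Markers of the gonadal soma, mostly reads of flam, the main piRNA source of gonadal somatic cells, went from 3473 to 1863 to 598 CPM, whereas the male germline markers stood at 2422, 3225 and 1882 CPM. The part of these cell types in the order was not tested, and in such bulk libraries fewer cells of a type and less RNA per cell cannot be told apart.

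**Figure D1:**
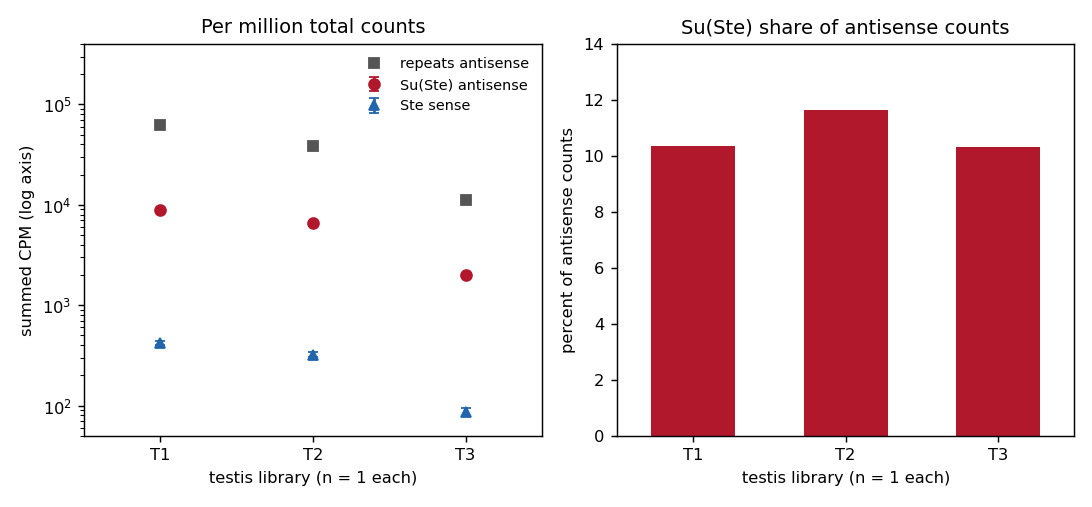
Su(Ste), Stellate and repeat small RNA in the 3 testis libraries. Left, summed CPM on a log axis, with 95% Poisson intervals for Su(Ste) antisense and Ste sense, all falling from T1 to T3. Right, the Su(Ste) share of all antisense counts, between 10.3% and 11.6%. Each point or bar is 1 library.

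Strand separated the families in every testis library. The antisense share of the Su(Ste) counts was 96.9% in T1 (exact binomial interval 96.7% to 97.1%), 96.8% in T2 (96.6% to 97.1%) and 96.6% in T3 (96.3% to 96.9%). For Stellate it was 17.2% in T1 (15.5% to 18.9%), 17.6% in T2 (15.6% to 19.6%) and 21.9% in T3 (18.9% to 25.2%). All 27 Su(Ste) copies had more antisense than sense counts, 86.7% to 99.4% antisense over the testis libraries, and all 13 Ste exons had more sense counts, 1.54% to 41.1% antisense.

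Su(Ste) copies differed widely in level. Per kb of gene, antisense counts in T1 ran from 30.0 at CR42427 to 2440 at CR42420, with a median of 864. The largest counts were those of CR42410 (Y, 1016352 to 1017835), with 2837 antisense reads in T1, 2024 in T2 and 1027 in T3, and of CR42430 (Y, 916438 to 917820), with 2829, 2017 and 1025. The 6 copies with the most counts took 43.9% of the Su(Ste) antisense counts of T1, and 13 copies took 80.1%. The 3 copies of the second Y block held 317 to 445 antisense counts per kb, inside the 30.0 to 2440 of the first block and under its median of 1082. These 3 copies also had 9.10 to 11.1 antisense counts for each sense count, against 7.74 to 81.4, with a median of 43.5, in the first block. The change from T1 to T3 was far more even: the CPM in T3 was 0.0818 to 0.247 of that in T1, with a median of 0.219, and the lowest of these was CR42427, with 15 counts in T1.

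Among the Stellate exons, Ste12DOR stood apart on the sense strand. It held 714 sense counts in T1, 518 in T2 and 237 in T3, or 188, 142 and 38.2 CPM. Per kb this was 1050 sense counts in T1, against 61.8 at Ste:CG33236 to 117 at Ste:CG33237 for the 12 array copies. On the antisense strand Ste12DOR was among the lowest, with 19.1 counts per kb against 17.0 to 46.9. The sense counts of the array copies in T1 ran from 47 at Ste:CG33243 to 85 at Ste:CG33237. The UTR rows were sparse, with 80 sense counts over the 13 3' UTR rows and 21 over the 11 5' UTR rows in T1.

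**Figure D2:**
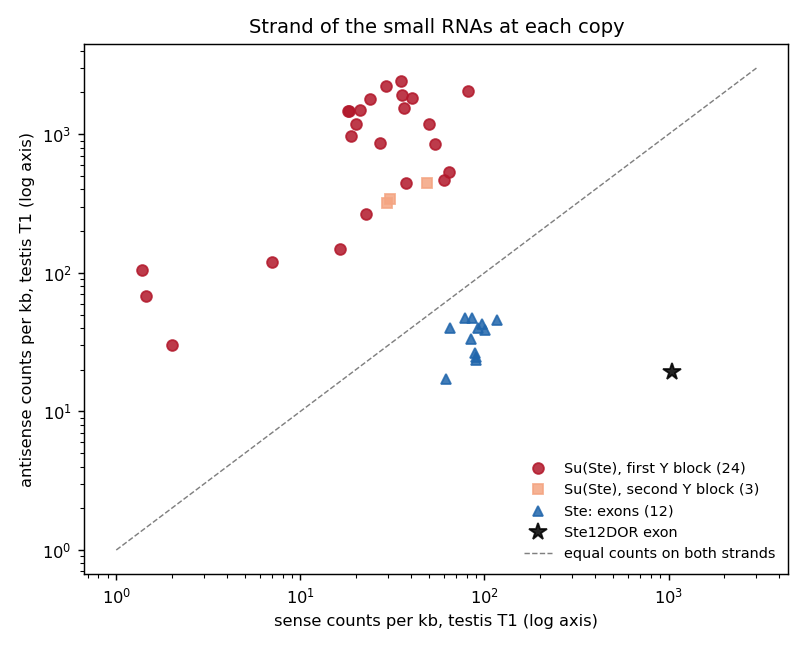
Sense against antisense small RNA counts per kb in testis T1, both on log axes, for each of 27 Su(Ste) copies and 13 Ste exons. Every Su(Ste) point lies above the line of equal counts and every Ste point below it. Ste12DOR, at 1050 sense counts per kb, lies far to the right of the array copies.

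In WT sperm the same small RNAs were present at a much lower level. The Su(Ste) antisense rows summed to 129, 115 and 74.0 CPM in the 3 libraries, a mean of 106 ± 28.5 (SD, n = 3), from 860, 379 and 540 counts. The mean of the 3 testis libraries was 55.2-fold higher by CPM, 20.4-fold higher per miRNA count and 6.02-fold higher per antisense count. The Ste sense rows summed to 2.55, 3.33 and 1.78 CPM, from only 17, 11 and 13 counts, and the testis mean was 108-fold higher by CPM, 38.5-fold per miRNA count and 11.8-fold per antisense count. All 3 WT sperm libraries lay below all 3 testis libraries for both sums.

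**Figure D3:**
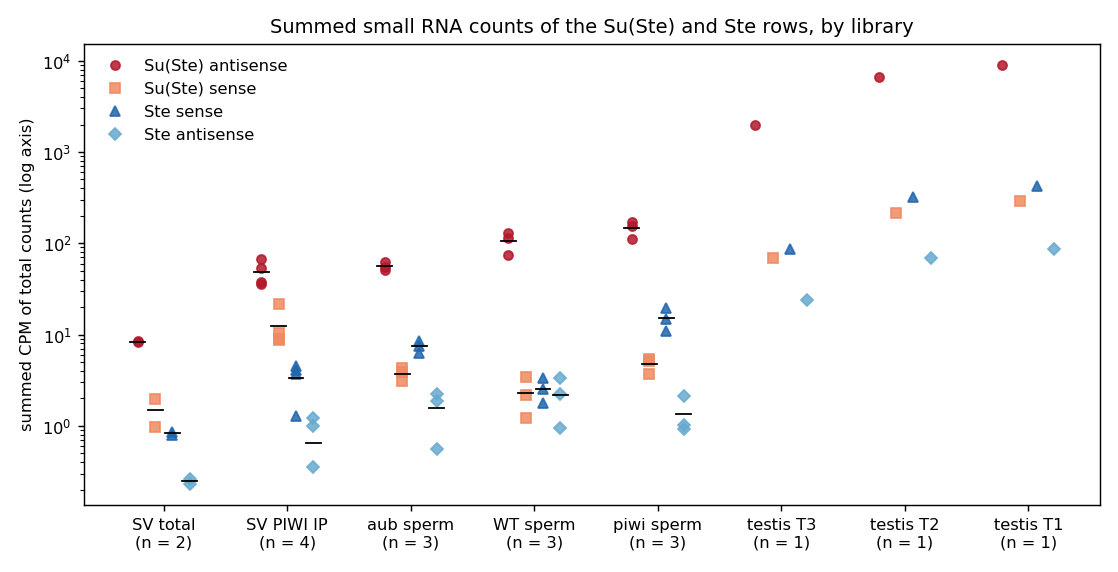
Summed CPM of the Su(Ste) and Ste rows by strand in every library, on a log axis. Symbols are libraries and black bars are group means. A library at 0, seminal vesicle PIWI IP 4 for Ste antisense, is not drawn but counts in its mean. Su(Ste) antisense is the highest sum in every library, and testis lies above all others.

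WT sperm and the averaged testis libraries were compared with edgeR's quasi-likelihood test over all 13723 rows with enough counts, and a call needed an adjusted p (Benjamini-Hochberg over these rows) under 0.05. Among the members, 83 rows had enough counts and 82 were called lower in sperm and 0 higher, where 57.1% of all tested rows were called, 30.7% lower and 26.4% higher. The median log2 fold change was -5.78 over 27 Su(Ste) antisense rows, -5.83 over 23 Su(Ste) sense rows, -6.37 over 20 Ste sense rows and -4.55 over 13 Ste antisense rows, against 0.21 over all rows. Each testis library was assumed to vary as sperm libraries do. Since rows high in testis passed the filter through testis, these counts describe the rows tested and not all members.

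The fall was shared by repeat rows, numbered piRNA clusters and male germline markers. Repeat rows on the antisense strand had a median log2 fold change of -4.73, with 165 of 178 called lower, and the numbered piRNA clusters had medians of -4.77 on the sense strand and -4.20 on the antisense strand. All 44 tested rows of the male germline markers were called lower, with a median of -5.79, among them mir-959 at -8.43 ± 0.72 (SE, adjusted p = 1.94e-05). Of 7 tested gonadal soma rows, 3 were called lower and 3 higher, with a median of -1.58, where 30.7% and 26.4% of all rows were. Accessory gland markers had a median of 7.01 and muscle markers of 3.22 in the other direction. In the antisense pool of WT sperm, Su(Ste) took 2.53%, 1.66% and 1.18%, against 10.3% to 11.6% in testis, so the groups did not overlap on that scale either.

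Rows with the highest mean CPM over all libraries were picked mostly by their testis level. Their fall in sperm therefore describes these rows and adds no support. Each of the antisense ones was called lower. CR42430 antisense fell by 5.39 on the log2 scale (SE 0.58, adjusted p = 2.76e-05), and CR42410 by 5.66 (SE 0.66, adjusted p = 4.02e-05). The antisense rows of CR42426, CR42422, CR42414 and CR41533, the others with the highest mean CPM, had log2 fold changes of -5.98, -5.71, -5.91 and -5.84. Ste12DOR sense fell by 6.39 (SE 0.62, adjusted p = 1.96e-05), and the sense exons of Ste:CG33237 and Ste:CG33247 had log2 fold changes of -7.50 and -5.89. The one tested member that missed the threshold was the Ste:CG33237 sense 3' UTR, at -3.71 ± 1.58 (SE, adjusted p = 0.0634). For 15 rows all WT sperm libraries were at 0, and the fitted fold change is then no bound. With these rows at a floor of 3 counts over the WT sperm group, the median of the Ste sense rows became -5.92 and that of the Su(Ste) sense rows -5.62.

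In aub mutant sperm, Su(Ste) antisense small RNA was lower than in WT sperm in every library, but no single row passed the threshold. The sum was 62.9, 51.6 and 54.6 CPM, a mean of 56.3 ± 5.89 (SD, n = 3), 1.88-fold under the WT mean. The highest aub library lay under the lowest WT library, at 74.0 CPM. On the scale of all antisense counts the share was 0.974%, 0.883% and 0.773% in aub against 1.18% to 2.53% in WT, again without overlap. Scaled per 1000000 miRNA counts, the groups did overlap, with 7727 to 8556 in aub and 8191 to 14588 in WT.

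Of the 27 Su(Ste) antisense rows, 22 had enough counts for the test in sperm, which 9 libraries entered together. None of the 23 member rows tested was called between aub and WT sperm, where edgeR called 1.84% of 10804 rows, 0.935% lower and 0.907% higher. All 22 Su(Ste) antisense rows had negative log2 fold changes, from -2.04 to -0.53 with a median of -1.14, against -0.11 over all 651 antisense rows and -0.30 over repeat antisense rows. An unadjusted p under 0.05 was reached by 12 of the 22, where 15.2% of all tested rows reached it. DESeq2 called 1 member row lower, where it called 1.88% of all rows lower. The copies share reads, so these rows are not independent. Of the 23 member rows 1, Ste12DOR, was positive with TMM scaling and 2 were with miRNA scaling, and 1 to 3 of the rows tested were positive with 1 library left out. The smallest adjusted p was that of CR42430, at 0.0751 for a log2 fold change of -1.52 ± 0.39 (SE).

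CR42430 antisense stood at 10.9, 16.0 and 8.50 CPM in WT sperm and at 4.98, 4.29 and 4.68 CPM in aub sperm, with every aub library under every WT library. For CR42410 antisense the values were 12.4, 7.57 and 7.13 CPM in WT and 4.11, 3.17 and 5.19 CPM in aub, also apart. Over all 27 rows, 9 had every aub library below every WT library and 0 had the reverse, where 5.09% of 20994 rows with at least 10 counts were lower in this way. Leaving out WT library 1 brought the median of the Su(Ste) antisense rows from -1.14 to -0.59. Fat body and hemocyte markers were also lower, at 114 to 297 CPM in WT sperm and 26.5 to 69.2 CPM in aub sperm, with 0 of 8 tested rows called, while the muscle markers overlapped (1954 to 2771 and 1134 to 2556 CPM). The part of these tissues in the difference was not tested.

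In piwi mutant sperm the Su(Ste) antisense sum was not lower than in WT. It was 173, 111 and 153 CPM, a mean of 146 ± 31.8 (SD, n = 3), and the groups overlapped. All 22 tested Su(Ste) antisense rows had positive log2 fold changes with a median of 0.57, from 0.08 to 1.33, and edgeR called 0 of them higher, where it called 0.898% of all rows, 0.342% higher and 0.555% lower. With miRNA scaling 16 of the 23 member rows were positive. Without piwi library 1, where the rows to test were chosen anew, 13 member rows were positive. An unadjusted p under 0.05 was reached by 1 of the Su(Ste) antisense rows, where 11.5% of all rows reached it. Over all 27 rows, 7 had every piwi library above every WT library and 0 had the reverse, where 3.99% of 19471 rows were higher in this way. The median of the tested rows was 0.12 without piwi library 1, 0.19 without WT library 3 and 1.13 without WT library 1.

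Sense reads of both families, by contrast, were higher in piwi sperm. The Su(Ste) sense sum was 3.68 to 5.44 CPM in piwi against 1.21 to 3.45 CPM in WT, 2.08-fold higher and without overlap. In aub sperm it was 3.08 to 4.30 CPM, 1.64-fold above WT, and the groups overlapped. Ste12DOR sense stood at 1.798, 1.51 and 0.822 CPM in WT sperm, from 12, 5 and 6 counts. In piwi sperm it stood at 9.69, 5.29 and 7.22 CPM, from 73, 46 and 35 counts, and in aub sperm at 3.49, 3.08 and 2.28 CPM, from 28, 33 and 18 counts. The 3 groups did not overlap, with WT lowest and piwi highest. Ste12DOR was the one member row called in piwi against WT sperm, rising by 2.55 ± 0.53 on the log2 scale (SE, edgeR adjusted p = 0.0431). The call is near the threshold: it was lost when WT library 2 or 3, piwi library 1 or 3, or any one aub library was left out, with log2 fold changes of 1.96 to 2.62 and adjusted p of 0.0536 to 0.173. In aub against WT sperm its log2 fold change was 0.91 ± 0.55 (SE, adjusted p = 0.489).

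The Ste copies of the tandem array showed the same order in their summed CPM. Without Ste12DOR, the Ste sense rows held 5, 6 and 7 counts in WT sperm, 73, 49 and 37 in piwi sperm and 40, 34 and 40 in aub sperm. This was 0.749 to 1.82 CPM in WT, 5.64 to 9.69 in piwi and 3.17 to 5.06 in aub, with no overlap between any 2 groups. With Ste12DOR, the sum was 5.90-fold higher in piwi and 2.91-fold higher in aub than in WT, and no overlap with WT was seen per 1000000 miRNA counts either (197 to 423 in WT, 953 to 1597 in piwi and 936 to 1191 in aub). No exon of the array had enough counts for the test. Of the 13 Ste sense exons, 9 had every piwi library above every WT library, where 3.99% of 19471 rows with at least 10 counts did. In aub, 5 exons had every library above every WT library, where 10.7% of 20994 such rows did. The exons were not held to 10 counts, and copies share reads. Those of Ste:CG33239, Ste:CG33240 and Ste:CG33245 were at 0 in every WT library. The comparisons of piwi and aub with WT share the 3 WT libraries, whose few Ste counts enter both. Beside this, fat body and hemocyte markers stood at 26.5 to 99.2 CPM in piwi sperm, below the 114 to 297 CPM of WT sperm, and male germline markers overlapped, at 34.4 to 98.2 CPM in piwi, 65.7 to 121 CPM in aub and 30.6 to 71.7 CPM in WT. The part of these tissues was not tested.

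The antisense share at Stellate differed accordingly, at 46.9%, 50% and 35% in WT sperm, from 32, 22 and 20 counts of both strands. It was 9.88%, 7.77% and 6.49% in piwi sperm, from 162, 103 and 77 counts, and 20.9%, 8.22% and 20% in aub sperm, from 86, 73 and 75 counts. WT was above both mutants in every library, but exact binomial intervals overlapped in part. Those of WT began at 29.1%, 28.2% and 15.4%, and those of aub reached 31.0%, 17.0% and 30.8%. The interval of piwi library 1, at 5.75% to 15.5%, also touched that of WT library 3. The Ste antisense counts themselves overlapped among all groups, at 0.960 to 3.33 CPM in WT, 0.920 to 2.12 in piwi and 0.559 to 2.24 in aub. At Su(Ste) the antisense share was 97.1% to 98.96% in WT, 96.7% to 96.9% in piwi and 92.7% to 94.4% in aub. Every aub library was below the other groups. The intervals of aub libraries 1 and 2 reached 96.0% and 96.1%, into those of WT library 3 (from 95.4%) and of piwi (from 95.2%).

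The mutants were also compared with each other, a contrast in which the WT level does not enter. The WT libraries still enter the row filter, scaling and estimate of spread of the test. Leaving out WT library 1 or 3 changed the number of member rows called. The Su(Ste) antisense sum was 2.58-fold lower in aub than in piwi sperm, and no aub library reached the lowest piwi library, at 111 CPM. Scaled per 1000000 miRNA counts it was 1.54-fold lower, with 7727 to 8556 in aub and 9641 to 16503 in piwi and again no overlap, and the median of the tested rows given next went from -1.69 to -0.62. None of 23 member rows was called by edgeR, where 0.518% of all rows were called, 0.278% higher and 0.241% lower. The log2 fold changes of the 22 Su(Ste) antisense rows were all negative, from -2.84 to -0.98 with a median of -1.69, against -0.16 over all antisense rows and -0.56 over repeat antisense rows. An unadjusted p under 0.05 was reached by 21 of these rows, where 9.93% of all rows reached it. DESeq2 called 7 of the 23 member rows lower, where it called 0.740% of all rows lower. For CR42430 the log2 fold change was -1.77 ± 0.39 (SE, adjusted p = 0.0761), from 15.8, 9.43 and 12.4 CPM in piwi to 4.98, 4.29 and 4.68 CPM in aub. Over all 27 rows, 22 had every aub library below every piwi library, where 3.25% of 21168 rows did. Ste12DOR sense had a log2 fold change of -1.64 ± 0.46 (SE, adjusted p = 0.181).

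**Figure D4:**
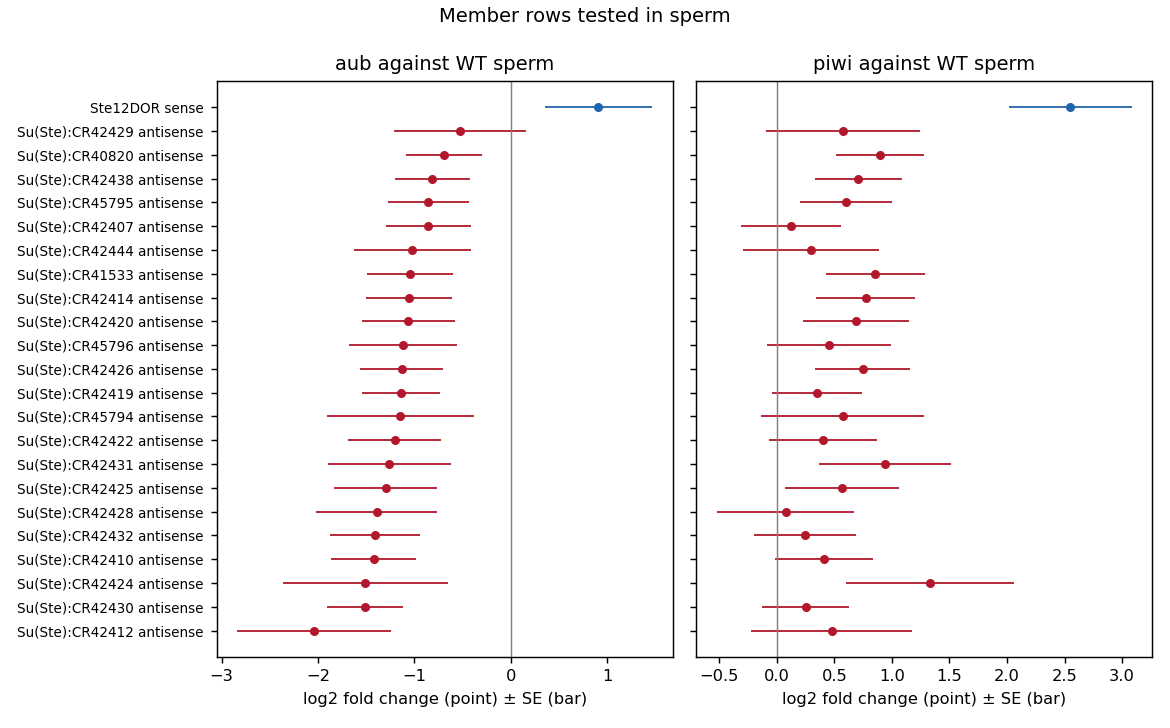
Log2 fold change (points) and SE (bars) of the 23 member rows tested in sperm, aub against WT on the left and piwi against WT on the right, in the same row order. With TMM scaling the 22 Su(Ste) antisense rows lie left of 0 for aub and right of 0 for piwi (with miRNA scaling 16 of the 23 rows do for piwi), and Ste12DOR sense reaches 2.55 for piwi. Both panels use the same 3 WT libraries, and rows share reads.

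In the seminal vesicle, the organ that stores sperm, members were scarce in total RNA and higher by CPM in the PIWI IP. The Su(Ste) antisense sum was 8.49 and 8.23 CPM in total RNA, from 128 and 144 counts. In the IP it was 37.6, 68.0, 53.5 and 35.5 CPM, a mean of 48.7 ± 15.2 (SD, n = 4), 5.82-fold above total RNA and without overlap. The Ste sense sum was 0.862 and 0.800 CPM in total RNA and 4.50, 4.06, 3.68 and 1.27 CPM in the IP, the last from 3 counts in the shallowest library. Scaled per antisense count, a pool that does not hold these sense reads, the direction of the Ste sense sum turned, with a log2 ratio of -0.12.

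Repeat antisense counts differed in the same direction, with 399.8 and 426 CPM in total RNA and 2379 to 5310 CPM in the IP. Su(Ste) took 0.354% and 0.319% of antisense counts in total RNA against 0.455%, 0.595%, 0.370% and 0.221% in the IP, which overlap. Scaled per 1000000 miRNA counts, the Su(Ste) antisense sum was 123 to 161 in total RNA and 197 to 454 in the IP. The edgeR test, whose trimmed-mean (TMM) scaling evens out the bulk of all rows, called 0 of 27 tested member rows, where 18.4% of 18666 rows were called, 8.41% higher and 10.0% lower. The Su(Ste) antisense rows had a median log2 fold change of 0.69 against 1.17 over all antisense rows and 1.30 over repeat antisense rows, of which 93 of 191 were called higher. An unadjusted p under 0.05 was reached by 2 member rows, where 32.1% of all rows reached it. DESeq2 called 0 member rows higher, where it called 7.28% of all rows higher.

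The calls moved with the scaling. On total counts alone, which move the median of all rows to 2.08 on the log2 scale, 25 of 27 member rows were called higher, where 62.3% of all rows were, and the median of the members was 2.63. By CPM, 17 of the 27 Su(Ste) antisense rows had every IP library above both total RNA libraries, where 46.2% of 29304 rows did. Muscle markers moved the other way in the edgeR test, with 23 of 27 rows called lower in the IP, among them the Act57B exon at -1.98 ± 0.25 (SE, adjusted p = 9.08e-05), but their summed CPM was 13092 and 21848 in total RNA and 22297 to 51958 in the IP. Most of that sum was mir-1, at 12441 and 21262 CPM in total RNA and 21672.5 to 50394.8 CPM in the IP. The part of muscle RNA in the scaling was not tested.

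**Figure D5:**
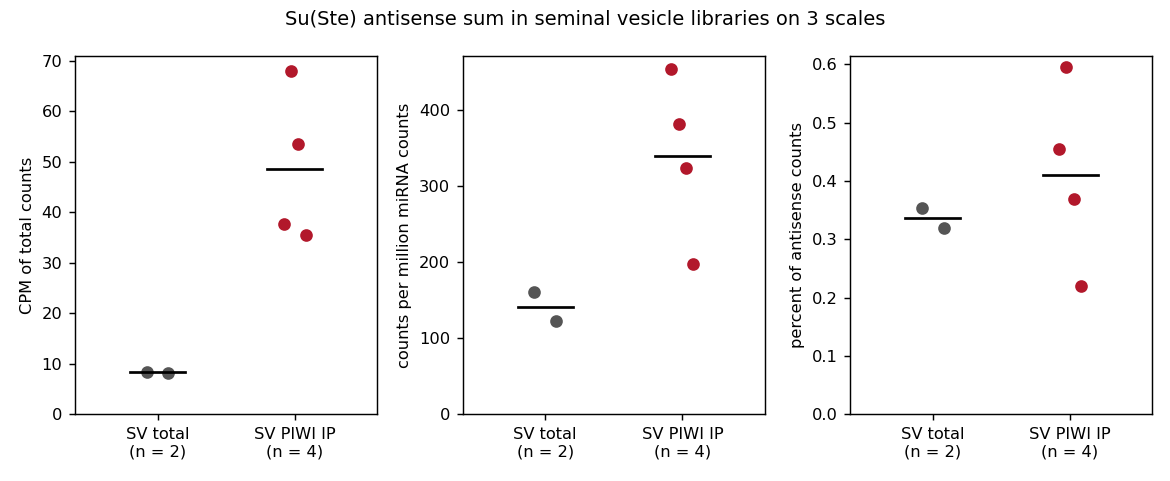
Su(Ste) antisense sum in 2 total RNA and 4 PIWI IP libraries of the seminal vesicle, per 1000000 total counts, per 1000000 miRNA counts and as percent of antisense counts. Points are libraries and lines are group means. The groups are apart on the first and second scales and overlap on the third.

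The strand balance of Su(Ste) in the seminal vesicle differed from that in sperm and testis. Su(Ste) counts were 81.0% and 89.4% antisense in total RNA and 78.2%, 88.6%, 71.1% and 80.0% in the IP, all below the 92.7% to 98.96% of the sperm libraries. The exact binomial intervals were 74.0% to 86.8% and 83.6% to 93.7% in total RNA and ran from 67.9% in IP library 3 to 90.2% in IP library 2. Those of total RNA library 2 and IP library 2 reached into that of aub sperm library 3, at 89.9% to 94.9%. Sense rows of CR42444, CR42430 and CR42425, the Su(Ste) sense rows with the highest mean CPM, held 17 to 30, 11 to 20 and 11 to 28 counts in IP libraries 1 to 3, and had log2 fold changes of 0.87, 0.38 and 2.40 with no call. At Stellate the antisense share was 23.5% and 22.2% in total RNA, from 17 and 18 counts of both strands. In the IP it was 18.2%, 23.2%, 8.89% and 0%, from 99, 99, 45 and 3 counts, a range that takes in the 17.2% to 21.9% of testis. The seminal vesicle and sperm columns were counted on separate feature lists, and no test was made between them.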

How the data were processed

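The authors deposited small RNA counts per feature and strand, and gene counts for embryo messenger RNA; all values used are whole numbers. Bowtie 1.2.3, Subread 2.0.0 with featureCounts, SAMtools 1.8, Trim Galore 0.5.0 and the builds dm6 and BDGP6 are named, with no roles, in the submitters' processing notes; the handling of reads with several positions is not given in the sources used here. Columns were matched to samples by name. Each small RNA file held 3 columns that matched no sample and were not used, and 1 column was usable for each of T1, T2 and T3. Coordinates are those of RefSeq (Release 6).

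Counts were tested with edgeR 4.0.16 in R 4.3.3 (filterByExpr, TMM, robust quasi-likelihood test, Benjamini-Hochberg adjustment over all tested rows of both strands, threshold 0.05), with DESeq2 1.42.0 as an alternative. The 9 sperm libraries shared 1 fit. CPM use all assigned counts of a library. Sums, shares and their intervals (95%, exact) carry no test. The intervals cover at most counting error, since no molecular identifiers are stated and a read may be counted at several copies. A limit of 3 counts is 0.160 to 1.27 CPM. The fits were tested on simulated data. Members and lists were chosen with earlier results of these data known. Single rows named are the 6 of each strand with the highest mean CPM, the rows called and the coding rows. Among the 16 pairs of libraries within a group, none were copies (lowest mean chi-square 5.66).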

Additional observations from a re-analysis of the deposited data

Results flagged for a closer look

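In the seminal vesicle PIWI IP, the only group of 4 libraries, 19 sets of values were examined for a library far from the others, and chance alone sets apart about 1 in 20 such sets. The Su(Ste) sense sum of IP library 3 was 21.8 CPM, from 243 counts, against 8.76 to 10.5 CPM in the other IP libraries. Without that library the log2 ratio of IP to total RNA of this sum was 2.66, and with it 3.08. On other scales, with all libraries, that ratio was 1.78 per miRNA, 1.85 without ribosomal RNA and 0.76 per antisense count. The Ste:CG33247 sense exon was at 0 CPM in IP library 4 and at 0.267 to 0.277 CPM in the others. Library 4 was the shallowest, and its limit of 3 counts is 1.27 CPM, so its count of 0 allows the level of the others.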

How the results depend on the processing

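The fall of the members from testis to WT sperm held under every alternative run: 59 (of 59 tested, with the testis libraries pooled) to 85 member rows were called lower. Of all rows, 2474 (with miRNA scaling) to 4859 (without the filter) were called lower, and 2802 with the testis libraries pooled. With 1 library left out, the median log2 fold change of the members was -6.36 to -5.51, against 0.063 to 0.24 over all rows. Counts of called member rows in sperm were less stable. For aub against WT, 0 rows were called lower by edgeR, 1 by DESeq2, 4 without the filter, 2 with each strand alone, 1 with only the groups compared, and 0 to 1 with 1 library left out, where 101, 203, 287, 114 and 118 of all rows were. For aub against piwi these were 0, 7, 18, 15 and 5 member rows, where 26, 80, 139, 45 and 55 of all rows were, and 0 to 8 with 1 library left out. For piwi against WT the 1 call, Ste12DOR, became 0 with miRNA scaling or only the groups compared, where 27 and 19 of all rows were called higher. It became 0 to 1 calls with 1 library left out. For PIWI IP against total RNA, 6 member rows were called higher with miRNA scaling and 25 with total counts. There 4336 and 11624 of 18666 rows were called higher. Leaving out 1 library gave 0 to 2 member rows. For the sperm and seminal vesicle fits with 1 library left out, counts over all rows are not given here. The cause of these shifts was not tested.

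Same-numbered sperm libraries correlated weakly, at -0.069 to 0.161 over 9 pairs, against -0.224 to 0.126 for pairs with other numbers. A library correlated best with its own number in 11 of 18 cases, so a weak pairing by number is not excluded. The seminal vesicle has 2 same-numbered pairs, at 0.048 and 0.176. With a replicate block, 2 member rows were called lower for aub against WT, 7 for aub against piwi, and 4 higher for PIWI IP against total RNA, where 151, 46 and 2050 of all rows were. The seminal vesicle block used only libraries 1 and 2 of each group. Blocking and leaving out IP libraries 3 and 4 cannot be told apart there. No paired analysis was possible because testis columns carry no shared numbers, for WT sperm against testis.

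Log2 ratios of sums moved with the scale. The Su(Ste) antisense sum had -0.63 for aub against piwi per miRNA, 1.26 per miRNA, 1.34 without ribosomal RNA and 0.29 per antisense count for IP against total RNA, and -4.35 per miRNA and -2.59 per antisense count for sperm against testis. The Ste sense sum had -0.26 for aub against piwi per miRNA, 0.91, 0.93 and -0.12 for IP against total RNA on the same scales, the last turning the direction, and -5.27 and -3.57 for sperm against testis. Directions also turned for the Su(Ste) sense sum of aub against piwi (0.40 per miRNA), for the Ste antisense sum of aub against piwi (-0.11 without ribosomal RNA and -0.056 per antisense count) and of IP against total RNA (-0.65 per antisense count). In piwi against WT, CR42430 antisense had -0.26 and CR42422 antisense -0.014 with miRNA scaling, and in IP against total RNA CR42430 antisense had -0.48 with each strand alone. With 1 library left out, the ranges that crossed 0 were, for piwi against WT, -0.28 to 0.58 for CR42430, -0.10 to 1.02 for CR42410 and -0.11 to 0.80 for CR42422 (antisense), for IP against total RNA, -0.23 to 0.41 for CR42430 antisense, -0.071 to 1.06 for Ste12DOR sense and -0.65 to 6.45 for CR42430 sense, and for the Ste antisense sum of aub against piwi -0.14 to 0.68. Scaling by total or antisense counts was chosen after seeing the data.

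Over all rows, aub against WT gave 98 higher and 101 lower, but 186 and 203 by DESeq2, 361 and 287 without the filter and 256 and 45 with miRNA scaling. Piwi against WT gave 37 and 60, and 77 and 119, 153 and 214, and 27 and 124. Aub against piwi gave 30 and 26, and 64 and 80, 181 and 139, and 500 and 21. PIWI IP against total RNA gave 1569 and 1866, but 4336 and 841 with miRNA scaling and 11624 and 173 with total counts. Sperm against testis gave 3628 and 4212, but 6790 and 2474 with miRNA scaling, 2116 and 2802 with testis pooled, and 1140 and 3088 by DESeq2. Of 643 values of single rows under alternatives, 560 kept direction and side of the threshold, as did 173 of 200 sums within their spread. Few Ste counts in sperm limit what can be seen: 3 counts are 0.411 to 0.908 CPM in WT sperm.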

Other observations

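In the embryo messenger RNA table, 7 member genes had a row, 6 Ste copies and SteXh:CG42398, in 12 embryo libraries (5 WT, 5 labelled paternal aub and 2 labelled maternal aub) of 1690431 to 16289732 counts. The 6 Ste copies held 1 count in all, at Ste:CG33246, and SteXh:CG42398 held 5 counts in 3 libraries. No comparison was made at this depth.

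Casein kinase 2 subunits and their partners had 12 tested rows in sperm. Of these 0 were called in aub or piwi against WT sperm, where edgeR called 1.84% and 0.898% of all rows, with medians of 0.10 and 0.04 on the log2 scale and 1 and 0 rows at an unadjusted p under 0.05. In WT sperm against testis 3 of 18 such rows were called higher and 6 lower, where 26.4% and 30.7% of all rows were. In PIWI IP against total RNA 0 of 16 were called higher and 2 lower, where 8.41% and 10.0% of all rows were, among them Nacalpha, a nascent-chain chaperone subunit, at -1.78 ± 0.22 (SE, edgeR adjusted p = 7.96e-05). Fragments of the piRNA pathway genes gave 0 calls among 9 rows in either mutant, with 2 rows at an unadjusted p under 0.05 for aub and 1 for piwi, and 11 of 24 rows were called lower in sperm than in testis, where 30.7% of all rows were. In the sperm comparisons, 1 male germline marker, mir-959, was called higher in aub than in WT (3.78 ± 0.80, SE, edgeR adjusted p = 0.0436), and 1 hemocyte marker, Hml, lower in aub than in piwi (-2.61 ± 0.48, SE, edgeR adjusted p = 0.0345).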
